A study of Homo sapiens with 14 samples.

Results

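SW620-TET2CD cells were compared with SW620-FLAG cells on day 15 of long-term culture (LTC) in bulk RNA-seq, location by location. The comparison rests on 4 libraries of the 14 in the series, and a library belongs to it by its labels. They are SW620-FLAG inside the colonies, SW620-FLAG outside, SW620-TET2CD inside and SW620-TET2CD outside, with 1 library each. The sample labels name the control SW620, and the study describes it as SW620-FLAG. SW620 is a human colorectal cancer cell line derived from a lymph node metastasis. SW620-FLAG carried an empty FLAG vector and SW620-TET2CD carried the catalytic domain of TET2, and both lines were grown for 15 days without passage. Colonies were loosened with accutase and passed through a strainer, so that "outside" denotes the cells that came through as single cells and "inside" denotes the colony spheres that the strainer held back. Each line is 1 transduced line, so an effect of the transgene cannot be told apart from any other difference between the 2 lines, gene levels in a library cannot separate a change within cells from a change in which cells it holds, and the inside and outside cells of a line may come from the same cultures.

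TET2 is a dioxygenase that oxidises 5-methylcytosine, mostly at CG dinucleotides, and so opens the way to loss of DNA methylation. Methylated CG-rich or imprinted regulatory regions are often silent, and genes that respond to a loss of methylation in cultured cancer cells include imprinted genes, germline genes and tissue-specific genes. In colorectal cancer cells the WNT pathway is usually active, and its feedback inhibitors, such as the DKK and SFRP proteins, are among the genes known to be silenced by methylation. DNA methylation itself was not measured in these libraries.

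RSEM expected counts, the estimated numbers of reads per gene, summed to between 21223051 and 25840563 per library. Genes encoded by the mitochondrial genome took 6.75% to 7.14% of them. Levels are given as CPM, the count scaled to a common library size after TMM scaling of the totals. The log2 ratio at a location is that of SW620-TET2CD to SW620-FLAG with 1 CPM added to each, which understates the change of low genes. For the line effect, the quasi-likelihood test of edgeR (two-sided) was run over 17722 genes with location as a block, and a gene was called at a Benjamini-Hochberg adjusted p under 0.05. The 2 locations are the only replicates of the line effect. The fit then has 1 residual degree of freedom, p-values measure the spread between these libraries only, and a line effect that differs between locations adds to that spread. Of the colorectal epithelial markers, KRT8 was at 2277 to 3181 TPM, EPCAM at 379 to 500 TPM and CDH1 at 72.6 to 143 TPM in the 4 libraries. VIL1, a brush border protein, was at 131 to 290 TPM and CDX2, an intestinal transcription factor, at 21.3 to 39.7 TPM, while KRT20, CDH17, GPA33 and CEACAM5 stayed at or below 1.12 TPM.

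TET2, the gene behind the transgene, was checked first. It (ENSG00000168769, chromosome 4, 105145875 to 105279816, plus strand, GRCh38) was at 9.12 CPM inside and 8.43 CPM outside in SW620-FLAG, and at 298 CPM inside and 921 CPM outside in SW620-TET2CD. Both SW620-TET2CD libraries lay far above both SW620-FLAG libraries, and the level outside the colonies was the higher of the 2. TET2 rose by a fitted log2 fold change of 5.90 (SE 0.47, adjusted p = 0.0457). The gene-level counts do not separate the vector transcript from the endogenous one. The other two TET enzymes were not called. TET1 was at 2.03 and 1.97 TPM in SW620-FLAG inside and outside and at 2.24 and 1.71 TPM in SW620-TET2CD, and TET3 went from 7.65 to 7.57 TPM inside and from 7.2 to 6.35 TPM outside.

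Across all genes, 73 of 17722 were called (0.412%), 51 higher (0.288%) and 22 lower (0.124%) in SW620-TET2CD. The fitted log2 fold changes of the called genes ran from 0.96 to 10.23 among the higher ones and from -0.92 to -5.32 among the lower ones. The Wald test of DESeq2 called 704 of the 16255 genes it gave an adjusted p (4.33%), and all 73 were among them. In total 3536 genes (20% of those tested) had an unadjusted p under 0.05. The 2 SW620-FLAG libraries were the most alike, with 70 genes that differed by over 2-fold between inside and outside, against 773 genes between the 2 SW620-TET2CD libraries. The line effect in day 15 bulk depended on which library was left out. Without SW620-FLAG inside or without SW620-FLAG outside edgeR called 0 genes, with 1186 and 1265 genes at an unadjusted p under 0.05. Without SW620-TET2CD inside 4191 genes were called, and without SW620-TET2CD outside 2950. Between the lines, 702 genes differed by over 2-fold inside and 1074 outside, of which 321 did so in the same direction at both locations and 2 in opposite directions. The ratio had the same sign at both locations for 67.4% of the genes tested. Across these genes the inside and outside ratios had a Pearson r of 0.59, a description over genes that share the 4 libraries.

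**Figure D1:**
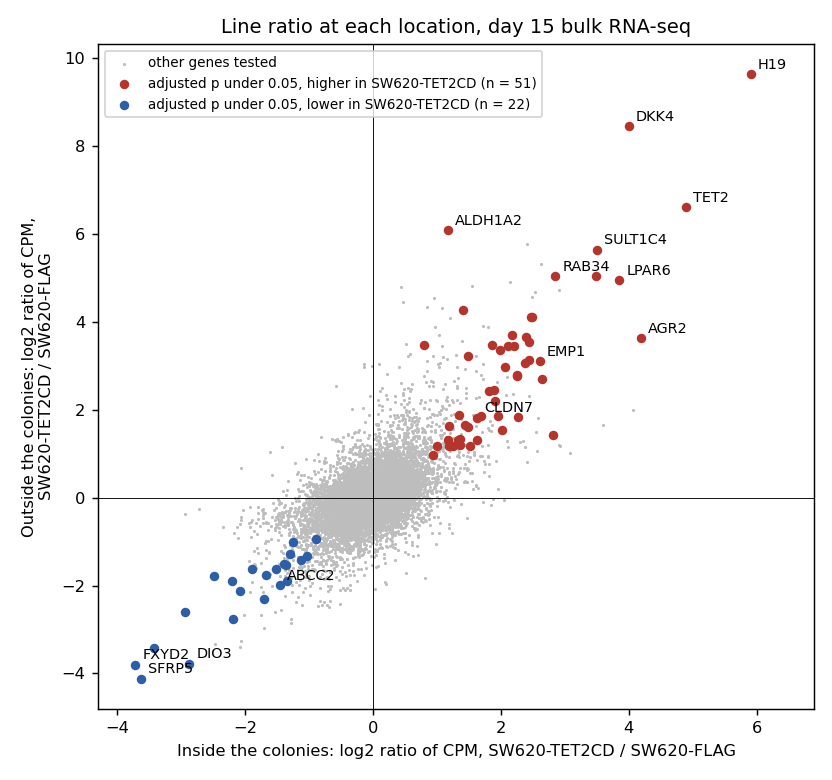
Each point is a gene tested, with its log2 ratio of CPM (SW620-TET2CD to SW620-FLAG, 1 CPM added) inside the colonies on the horizontal axis and outside on the vertical axis. The 51 genes called higher are red and the 22 called lower are blue. H19 lies farthest to the upper right at 5.90 and 9.63, and SFRP5 and FXYD2 lie farthest to the lower left.

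Of the 51 genes called higher, 26 were under 1 CPM in both SW620-FLAG libraries, and of the 22 called lower, 3 were under 1 CPM in both SW620-TET2CD libraries. Such genes were near the floor in the line where they were lower, and many passed the filter on low counts only through the other line. These counts therefore describe levels and support no difference. Of the genes called higher, 41 of the 51 were higher outside than inside in SW620-TET2CD, against 50.3% of all genes tested. Of the 22 called lower, 8 were higher outside than inside in SW620-TET2CD. Genes were ranked by the smaller of their 2 absolute log2 ratios among those with the same sign at both locations and a mean of at least 5 CPM, and the first 15 in each direction are described next. DESeq2 called all 30 of these genes.

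H19 headed the ranking. It is a maternally expressed imprinted long non-coding RNA (ENSG00000130600, chromosome 11, 1995166 to 2004552, minus strand). H19 was at 0.472 CPM inside and 0.576 CPM outside in SW620-FLAG, and at 87.2 CPM inside and 1251 CPM outside in SW620-TET2CD. The groups did not overlap, and H19 rose by a fitted log2 fold change of 9.99 (SE 0.66, adjusted p = 0.0304). Its neighbour IGF2, an imprinted growth factor gene, went from 3.66 to 26 CPM inside and from 7.63 to 219 CPM outside. IGF2 was higher in SW620-TET2CD at both locations but was not called (log2 fold change 3.95, SE 0.50, adjusted p = 0.0624).

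DKK4, a secreted inhibitor of WNT signalling (ENSG00000104371, chromosome 8, 42374063 to 42377229, minus strand), was at 0.157 and 0.133 CPM in SW620-FLAG inside and outside, which is 4 and 3 reads. In SW620-TET2CD it was at 17.4 CPM inside and 397 CPM outside. DKK4 rose with log2 ratios of 3.99 and 8.46 (adjusted p = 0.0294). LPAR6, a receptor for lysophosphatidic acid (ENSG00000139679, chromosome 13, 48389567 to 48444704, minus strand), lies within RB1 on the opposite strand. It had 3 reads in each SW620-FLAG library and 315 and 895 reads in SW620-TET2CD inside and outside. LPAR6 rose with log2 ratios of 3.84 and 4.95 (adjusted p = 0.0211). Both genes had at most 4 reads in a SW620-FLAG library and at least 315 in a SW620-TET2CD library.

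AGR2, a disulfide isomerase of mucus-secreting epithelia (ENSG00000106541, chromosome 7, 16791811 to 16833433, minus strand), had 0 reads inside and 1 read outside in SW620-FLAG, and 359 and 314 reads in SW620-TET2CD. Over both locations this is a ratio of 688 with a 95% exact counting interval from 123 to 27228, which covers counting error only. AGR2 rose (adjusted p = 0.0304), and it was the only one of the first 15 that was not higher outside than inside in SW620-TET2CD. SULT1C4, a cytosolic sulfotransferase, went from 0.157 to 12.1 CPM inside and from 0.0887 to 53.2 CPM outside (adjusted p = 0.0304). CALML3, a calmodulin-like protein of epithelia, went from 0.118 to 11.5 CPM inside and from 0.133 to 36.2 CPM outside (adjusted p = 0.0211). RAB34, a small GTPase of the Golgi and of cilium formation, went from 0.157 to 7.31 CPM inside and from 0.0443 to 33.3 CPM outside (adjusted p = 0.0457). All of these rose, and all but AGR2 were higher outside than inside in SW620-TET2CD.

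Among the rest of the first 15, EMP1, an epithelial membrane protein, rose from 3.93 to 29.1 CPM inside and from 6.70 to 65.3 CPM outside, with log2 ratios of 2.61 and 3.11 (adjusted p = 0.0211). ERVH48-1, which encodes the endogenous retroviral protein suppressyn, rose with log2 ratios of 2.48 and 4.11 (adjusted p = 0.0304). The long non-coding AC092198.1 rose with ratios of the same size, 2.48 and 4.11 (adjusted p = 0.0304). Others had like ratios without being called. The long non-coding CASC15 had log2 ratios of 2.90 and 4.73 (adjusted p = 0.0601), SBSPON, an extracellular protein with a somatomedin B domain, had 2.62 and 5.32 (adjusted p = 0.0731), and ATF5, a transcription factor of the stress response, had 2.48 and 4.57 (adjusted p = 0.0708).

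Among the genes that fell, FXYD2, a regulatory subunit of the sodium pump (ENSG00000137731, chromosome 11, 117800844 to 117828698, minus strand), went from 29.0 to 1.29 CPM inside and from 28.3 to 1.10 CPM outside. Its ratios at the 2 locations were close, -3.71 and -3.80, and FXYD2 fell by 4.58 on the log2 scale (SE 0.20, adjusted p = 0.0211). SFRP5, a secreted WNT antagonist (ENSG00000120057, chromosome 10, 97766751 to 97771999, minus strand), had 484 and 622 reads in SW620-FLAG inside and outside, and 13 and 17 reads in SW620-TET2CD. SFRP5 fell by 5.19 on the log2 scale (SE 0.26, adjusted p = 0.0211). DIO3, the deiodinase that inactivates thyroid hormone and an imprinted gene (ENSG00000197406, chromosome 14, 101560139 to 101563452, plus strand), fell from 101 to 12.9 CPM inside and from 58.6 to 3.35 CPM outside (adjusted p = 0.0457). These 3 genes were well expressed in SW620-FLAG and low in both SW620-TET2CD libraries.

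The long non-coding AL391056.1 fell with log2 ratios of -2.94 and -2.61 (adjusted p = 0.0304). KLK1, the tissue kallikrein, fell from 24.1 to 4.45 CPM inside and from 20.1 to 4.64 CPM outside (adjusted p = 0.0457). CCDC69 fell with ratios of -2.49 and -1.77 (adjusted p = 0.0488), and DPEP1, a membrane dipeptidase, with ratios of -1.70 and -2.30 (adjusted p = 0.0457). Further genes were lower at both locations without being called. SERPINA1, the secreted alpha-1 antitrypsin, went from 567 to 134 CPM inside and from 500 to 46.6 CPM outside (adjusted p = 0.0624).
MUC1, a membrane mucin, had ratios of -2.47 and -3.34 (adjusted p = 0.0546), and PRAP1, a secreted protein of gut epithelium, had -2.07 and -3.27 (adjusted p = 0.0624). The ephrin gene EFNA2 had -1.75 and -2.68 (adjusted p = 0.0708), SECTM1 had -1.72 and -2.14 (adjusted p = 0.0505) and the long non-coding AC021218.1 had -1.70 and -2.98 (adjusted p = 0.0818). The histone gene H2AC19 had -2.02 and -2.66 (adjusted p = 0.0624). RGPD6 was called lower with ratios of -3.42 at both locations (adjusted p = 0.0211), but it belongs to a family of near-identical copies. It went from 28.5 to 1.77 CPM inside and from 36.1 to 2.47 CPM outside, while its copy RGPD5 went from 13.2 to 42.3 CPM and from 4.79 to 41.8 CPM, so the value of RGPD6 alone is uncertain.

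**Figure D2:**
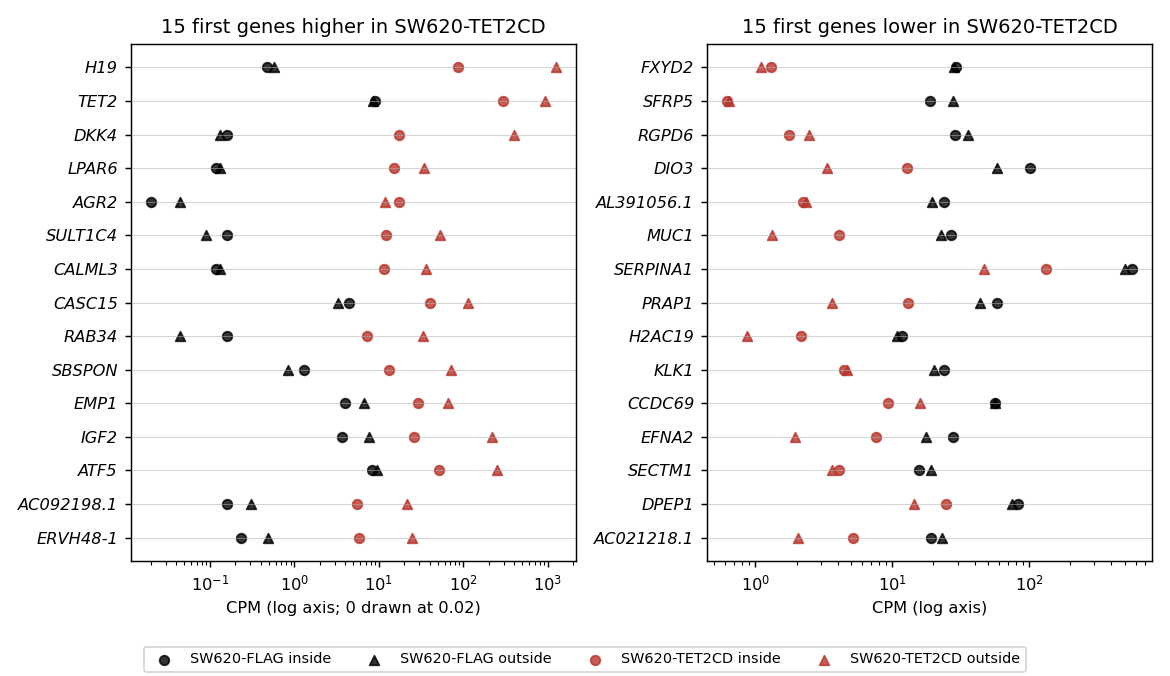
CPM on a log axis in the 4 libraries for the first 15 genes higher (left) and the first 15 lower (right) in SW620-TET2CD; black marks SW620-FLAG, red SW620-TET2CD, circles inside and triangles outside. In every gene both red marks lie on the same side of both black marks, and in 14 of the 15 higher genes the red triangle lies to the right of the red circle.

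The promoters of 4 of these genes are shown because CG dinucleotides are where TET2 mostly acts. The sequences are from RefSeq (GRCh38.p14), 250 bases before to 50 bases after the start RefSeq's table gives, 5′ to 3′ on the strand of the gene, with each CG in capitals. For H19, LPAR6 and DIO3 that start lies inside the longer GENCODE span given above, and other starts of these genes are not shown. They are the first genes of each ranking with a sequence there, TET2, DKK4 and RGPD6 being left out.
H19, chr11:2001217-2001516, minus strand: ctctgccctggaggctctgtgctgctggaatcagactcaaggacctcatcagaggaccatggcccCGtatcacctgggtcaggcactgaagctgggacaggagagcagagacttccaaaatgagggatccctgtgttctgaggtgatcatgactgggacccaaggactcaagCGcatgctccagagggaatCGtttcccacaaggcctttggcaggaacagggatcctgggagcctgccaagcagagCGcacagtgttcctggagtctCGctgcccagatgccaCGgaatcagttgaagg
LPAR6, chr13:48413064-48413363, minus strand: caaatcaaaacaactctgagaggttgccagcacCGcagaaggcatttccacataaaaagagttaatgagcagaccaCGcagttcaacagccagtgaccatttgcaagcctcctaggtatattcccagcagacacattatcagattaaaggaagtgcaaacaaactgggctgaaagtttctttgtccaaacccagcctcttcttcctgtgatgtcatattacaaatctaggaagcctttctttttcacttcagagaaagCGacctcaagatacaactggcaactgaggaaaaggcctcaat
SFRP5, chr10:97771950-97772249, minus strand: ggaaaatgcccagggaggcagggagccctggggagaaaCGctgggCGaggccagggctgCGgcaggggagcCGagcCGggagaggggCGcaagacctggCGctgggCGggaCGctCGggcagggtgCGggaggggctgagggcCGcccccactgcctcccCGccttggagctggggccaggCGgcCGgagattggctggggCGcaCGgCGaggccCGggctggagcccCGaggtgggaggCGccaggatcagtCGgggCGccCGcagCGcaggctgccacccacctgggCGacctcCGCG
DIO3, chr14:101561245-101561544, plus strand: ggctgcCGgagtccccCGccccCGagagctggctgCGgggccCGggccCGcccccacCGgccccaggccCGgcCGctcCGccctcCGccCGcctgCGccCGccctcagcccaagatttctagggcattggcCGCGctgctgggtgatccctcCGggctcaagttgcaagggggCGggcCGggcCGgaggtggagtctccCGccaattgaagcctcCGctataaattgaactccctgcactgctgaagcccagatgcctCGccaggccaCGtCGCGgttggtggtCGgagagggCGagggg
H19 holds 6 CG and LPAR6 holds 3, while SFRP5 and DIO3 hold 28 each. The motif searched was CG, which reads the same on both strands. Over the 10 of the first 15 higher genes with a promoter in the table, the median was 6 CG, and over the 10 such lower genes it was 27. The median over the 11441 genes tested with a promoter in the table was 26, and 85.4% of them held 10 or more. Among 39 called-higher genes with a promoter, 59% held 10 or more (median 13 CG), and of the 13 called-lower genes 76.9% (median 20 CG). These are counts of letters in 1 window per gene and say nothing about methylation there.

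The single-cell libraries gave a second readout of the same 2 lines. UMI counts were summed over the cells of each of the 8 single-cell libraries (days 6, 9, 12 and 15, 1 library per line and day), and the line was tested with edgeR as in bulk, with day as a block. Pairs of these libraries shared 11 to 31 cell barcodes. In these sums 696 of 16526 genes were called (4.21%), 2.37% higher and 1.85% lower. Of the 51 genes called higher in bulk, 45 were tested in the sums, 36 had the same sign and 30 were called in the same direction. Among the 25 of these 51 with at least 1 CPM in a SW620-FLAG bulk library, 24 were tested, 15 had the same sign and 9 were called. The others were under 1 CPM in both SW620-FLAG bulk libraries, so their agreement is a description. Of the 22 called lower, 21 were tested, 18 had the same sign and 8 were called. SFRP5 and WNT4 are among the 8 and were under 1 CPM in both SW620-TET2CD bulk libraries, so their agreement is a description as well. No gene called in bulk was called in the opposite direction in the sums, and over all 14772 genes tested in both readouts 54.7% had the same sign. The 38 shared calls, which hold such low genes too, are 57.6% of the bulk calls tested in both readouts and 6.26% of the single-cell calls.

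Of the 26 genes called higher that were under 1 CPM in both SW620-FLAG bulk libraries, 25 had a level in the single-cell sums. In SW620-FLAG 23 of these were under 1 CPM there on day 15 and 19 on all 4 days, while GASK1B reached 9.02, CALML3 4.60 and AGR2 1.87 CPM on day 6 and MYEOV lay between 2.23 and 4.26 CPM on all 4 days. On day 15 H19 was at 0.224 CPM in SW620-FLAG and 26.6 CPM in SW620-TET2CD. DKK4 was at 0.0204 and 11.4 CPM and TET2 at 3.16 and 36.6 CPM in the same order. H19, DKK4, LPAR6, AGR2, SULT1C4, CALML3 and RAB34 were higher in SW620-TET2CD on 4 of 4 days, with adjusted p between 3.63e-09 and 0.000101. In the sums too, H19, DKK4, LPAR6, SULT1C4 and RAB34 were under 1 CPM in SW620-FLAG on every day. The sums are also of the same 2 lines, so these p-values are a description and give no separate support. RAB34, CALML3 and H19, which formed a list of genes leading a single-cell cluster and so were picked on these lines, all rose in bulk. CASC15, SBSPON and ATF5, not called in bulk, were called higher in the sums and were higher on 4 of 4 days. Their log2 fold changes over the days were 3.73, 3.80 and 0.56 (adjusted p = 7.2e-09, 4.3e-09 and 0.0268). CASC15 was at 4.85 CPM in SW620-FLAG and 75.8 CPM in SW620-TET2CD on day 15. This too is a description. Among the genes that fell in bulk, KLK1 was at 61.0 and 18.6 CPM on day 15 (log2 fold change over the days -1.27, adjusted p = 7.6e-05) and SFRP5 at 2.90 and 2.19 CPM (-0.59, adjusted p = 0.00545), both lower on 4 of 4 days. SERPINA1, MUC1, PRAP1, EFNA2 and SECTM1, not called in bulk, were called lower in the sums and were lower on 4 of 4 days. Their fitted log2 fold changes lay between -0.63 and -1.04, with adjusted p between 7.4e-05 and 0.0106. H2AC19 (0.19, adjusted p = 0.72) and AC021218.1 (-0.22, adjusted p = 0.59) were not called there. Other large bulk changes had no like change in the sums. EMP1 had a fitted log2 fold change of -0.03 there (adjusted p = 0.97), FXYD2 of -0.31 (adjusted p = 0.29) and DIO3 of -0.09 (adjusted p = 0.84). IGF2, the neighbour of H19, was at 2.85 CPM in SW620-FLAG and 3.28 CPM in SW620-TET2CD on day 15, with a fitted change of 0.52 (adjusted p = 0.395).

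**Figure D3:**
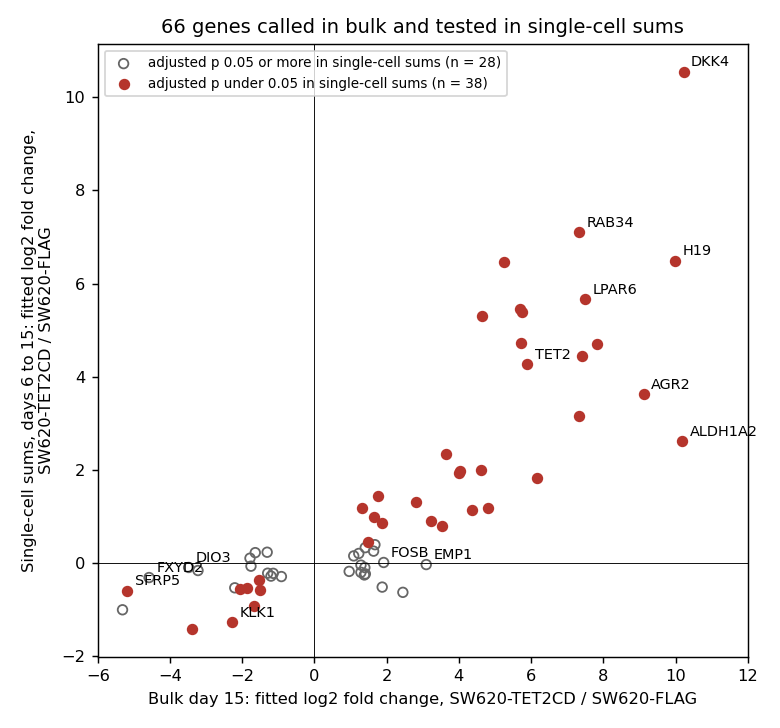
Fitted log2 fold changes (SW620-TET2CD to SW620-FLAG) of the 66 genes called in bulk and tested in the single-cell sums, with bulk day 15 on the horizontal axis and the sums over 4 days on the vertical axis. Filled red points are the 38 genes called in both; DKK4 is highest on both axes, while EMP1, FOSB, FXYD2 and DIO3 lie near 0 on the vertical axis.

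WNT genes were called in both directions. Of 25 WNT target and feedback genes tested, DKK4 and CCND1 rose and SFRP5 fell, against 0.288% and 0.124% of all genes. At an unadjusted p under 0.05 the list had 5 higher and 6 lower, against 9.91% and 10% of all genes, and DESeq2 called 4 in each direction, against 2.16% and 2.17%. Of the 25, 8 were higher and 12 lower at both locations, against 33.7% in each direction over all genes. CCND1, which encodes cyclin D1, was at 203 and 251 CPM in SW620-FLAG inside and outside and at 389 and 495 CPM in SW620-TET2CD. Its 2 ratios were alike, 0.94 and 0.98 (log2 fold change 0.96, SE 0.10, adjusted p = 0.0495). In the single-cell sums CCND1 had a fitted log2 fold change of -0.18 (adjusted p = 0.53).
Of the uncalled targets, FOSL1 had log2 ratios of 1.02 and 0.49, and TNFRSF19 of 0.44 and 2.13. EPHB3, EPHB2 and SP5, targets of WNT signalling in the intestinal crypt, had ratios between -0.32 and -1.04, and EPHB3 came closest to the threshold (adjusted p = 0.0652). Of 23 pathway components tested, WLS, which carries WNT ligands to the cell surface, rose from 10.8 to 31.0 CPM inside and from 9.09 to 30.8 CPM outside (log2 fold change 1.64, SE 0.15, adjusted p = 0.0457). WLS was not called in the single-cell sums (0.26, adjusted p = 0.21). TCF7, another component, had bulk ratios of -0.93 and -1.11 (adjusted p = 0.0601) and was at 0.10 in the sums (adjusted p = 0.73). DESeq2 called 2 components higher and 1 lower in bulk, against 2.16% and 2.17% of all genes. WNT4, chosen after its values were seen, fell from 5.42 to 0.526 CPM inside and from 5.72 to 0.533 CPM outside (adjusted p = 0.0488). The list medians were -0.21 for the targets and 0.03 for the components on the fitted log2 scale, against 0.00 over all genes.

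Epithelial markers were split by location. Of 27 tested, 15 did not have the same sign at the 2 locations, against 32.6% of all genes, 5 were higher at both and 7 lower at both, against 33.7% each, with a median log2 ratio of 0.26 inside and -0.21 outside. CDH1, the epithelial cadherin, had ratios of 0.55 inside and -0.33 outside, and EPCAM had 0.20 and -0.26. CLDN7, a tight junction protein (chromosome 17, 7259903 to 7263983, minus strand), was the only one called in bulk, against 0.288% of all genes called higher. It rose from 30.7 to 97.3 CPM inside and from 32.0 to 115 CPM outside (log2 fold change 1.75, SE 0.11, adjusted p = 0.0295). CLDN7 was also called in the single-cell sums (1.44, adjusted p = 0.00745). Its log2 ratios there were 1.87, 2.21, 1.15 and 0.30 on days 6, 9, 12 and 15. The day 15 ratio of the sums was thus smaller than the bulk ratios of 1.63 and 1.81. GRHL2, a transcription factor of epithelia, had the largest fitted change of the list (4.66, ratios of 1.61 and 2.27, adjusted p = 0.0604). It was near the floor, at 0.157 and 0.0887 CPM in SW620-FLAG inside and outside and at 2.53 and 4.26 CPM in SW620-TET2CD. GRHL2 was called higher in the sums (3.52, adjusted p = 0.00272), which is a description and gives no separate support. The sums also had CDH17 (-1.67, adjusted p = 0.00336) and TJP3 (-0.59, adjusted p = 0.0299) called lower, and 18 of 26 epithelial markers below 0 on day 15, against 53.4% of all genes. By the ranking, CLDN3 had ratios of 0.55 and 0.42 and SPINT1 of 0.15 and 0.21, while TJP3 had -0.79 and -1.11, OVOL2 -0.64 and -0.62, KRT8 -0.22 and -0.60, and KRT18 -0.12 and -0.28.

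None of the 24 mesenchymal markers and EMT transcription factors tested was called by edgeR, with 7 higher and 4 lower at an unadjusted p under 0.05, against 9.91% and 10% of all genes, while DESeq2 called 4 higher and 1 lower, against 2.16% and 2.17%. In the single-cell sums 1 member was called higher and 3 lower, against 2.37% and 1.85% of all genes. VIM, the intermediate filament vimentin, came closest. It was at 15.8 and 34.0 CPM in SW620-FLAG inside and outside and at 53.9 and 227 CPM in SW620-TET2CD, with no overlap between the lines (log2 fold change 2.28, SE 0.25, adjusted p = 0.0545 by edgeR and 6.9e-18 by DESeq2). The single-cell sums had VIM at 456 CPM in SW620-FLAG and 205 CPM in SW620-TET2CD on day 15, with the same order on 4 of 4 days and no call (adjusted p = 0.238). FN1, which encodes fibronectin, had log2 ratios of 0.09 inside and 2.11 outside (adjusted p = 0.314), and was called lower in the single-cell sums (-0.98, adjusted p = 0.0125). TGFBR1 had ratios of 0.76 and 0.79, and MMP14 of 0.20 and 1.29.
S100A4 had ratios of -0.52 and -0.50, TGFB1 of -0.72 and -0.24, SNAI2 of -0.35 and -1.11, and CD44 of -0.08 and -1.25. FBN1, the lowest fitted member at -1.75, stayed under 1 CPM in all 4 libraries. Of the 3 genes the study names as TET2 targets, SPARC was too low to be tested (at most 0.58 TPM). RORA had ratios of 0.08 and 1.02 (adjusted p = 0.334), and VEGFA had 0.83 inside and -0.26 outside (adjusted p = 0.600). In the single-cell sums VEGFA was called lower (-0.44, adjusted p = 0.0245).

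Most genes of the cell cycle lists were lower in SW620-TET2CD at both locations in bulk, though edgeR called none of them. All 40 mitosis genes tested were lower at both locations, against 33.7% of all genes. The median log2 ratio was -1.49 inside and -0.54 outside, against 0.00 over all genes, and 33 of the 40 had an unadjusted p under 0.05 in that direction, against 10% of all genes. DESeq2 called 20 of the 40 lower, against 2.17% of all genes, and none higher. TOP2A, the topoisomerase of dividing cells, was at 135 CPM inside and 187 CPM outside in SW620-FLAG, and at 29.3 CPM inside and 107 CPM outside in SW620-TET2CD. MKI67, the proliferation marker Ki-67, went from 102 to 22.8 CPM inside and from 144 to 75.5 CPM outside. In both genes the lines did not overlap, and the lowest level was that of SW620-TET2CD inside the colonies. The largest and the smallest fitted change of the list were those of CENPA (-1.73, adjusted p = 0.204) and PTTG1 (-0.58, adjusted p = 0.291).
Among S phase and replication genes edgeR called none, with medians of -0.71 inside and -0.31 outside. Of the 38, 34 were lower at both locations, against 33.7% of all genes. In that direction 22 had an unadjusted p under 0.05, against 10%, and DESeq2 called 3, against 2.17%. CDC45, a helicase subunit, had the lowest fitted change of this list (-1.43, adjusted p = 0.121), and CCNE1 was at 0.05 (adjusted p = 0.968). Of 11 CDK inhibitors and RB family genes none was called in bulk. CDKN1A, the p21 inhibitor, had ratios of 0.75 and 0.45 and CDKN2C of -0.90 and -0.54. CDKN2C was the 1 member of this list called in the single-cell sums, where it was lower (-0.57, adjusted p = 0.0255). In the single-cell sums the mitosis list moved from day to day. Its median ratio was 0.18, -0.24, 0.96 and -0.23 on days 6, 9, 12 and 15, with 33 of 40 members lower on day 15, against 53.4% of the genes tested in both readouts, and 39 of 40 higher on day 12, and edgeR called no member over the days. The S phase list moved from day to day as well, with medians of -0.07, -0.03, 0.70 and 0.10 on days 6, 9, 12 and 15 and 8, 15, 38 and 24 of 38 members higher, and no call.

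Immediate early genes, hypoxia targets and stress genes lay on the other side. Of 30 AP-1 and immediate early genes, which respond to growth factors and stress within minutes to hours, 26 were higher at both locations, against 33.7% of all genes, and 3 were called higher, against 0.288%. FOSB rose from 81.4 to 318 CPM inside and from 77.2 to 281 CPM outside (log2 fold change 1.92, SE 0.10, adjusted p = 0.0211). HBEGF, a ligand of the EGF receptor, rose from 10.6 to 45.8 and from 9.71 to 30.1 CPM (adjusted p = 0.0457), and IER5 from 15.9 to 47.6 and from 21.2 to 49.3 CPM (adjusted p = 0.0488). The list median was 1.02 inside and 0.81 outside, and DESeq2 called 15 of the 30 higher, against 2.16% of all genes. On day 15 of the single-cell sums 25 of the 30 were below 0, against 53.4% of all genes, with a median of -0.41. On days 6, 9 and 12 the medians were -0.16, 0.07 and -0.28, with 24, 10 and 27 of 30 below 0. None was called over the days.

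Of 27 hypoxia targets outside glycolysis, 20 were higher at both locations, against 33.7% of all genes, and 16 had an unadjusted p under 0.05 in that direction, against 9.91% of all genes. The median was 0.88 inside and 0.33 outside. BNIP3L, a mitophagy receptor, was called and rose from 20.2 to 46.9 CPM inside and from 19.6 to 50.4 CPM outside (log2 fold change 1.29, SE 0.11, adjusted p = 0.0457). In the single-cell sums its change was -0.04 with no call (adjusted p = 0.92). NDRG1, another hypoxia target, had log2 ratios of 2.91 inside and 1.20 outside and was not called (adjusted p = 0.103). Of 25 glycolysis genes 15 were higher at both locations, against 33.7% of all genes, and none was called by edgeR in bulk. In this list 7 were higher at an unadjusted p under 0.05, against 9.91%, and DESeq2 called 5 higher, against 2.16%. SLC2A3, a glucose transporter with the near copy SLC2A14, went from 7.82 to 146 CPM inside and from 15.7 to 65.9 CPM outside (adjusted p = 0.0878) but was called lower in the single-cell sums (-0.60, adjusted p = 0.0467), and PFKFB4 had ratios of 0.05 and -0.59.
Of 30 genes of the integrated stress response and serine synthesis 25 were higher at both locations, against 33.7% of all genes, with medians of 0.51 and 0.33. In bulk edgeR called none of the 30. At an unadjusted p under 0.05, 19 were higher, against 9.91% of all genes, and DESeq2 called 7 higher, against 2.16%. ATF5 was the highest of them, SLC7A11, the cystine transporter, the lowest (-0.19, adjusted p = 0.379), and ATF4 itself had ratios of 0.15 and -0.03. On day 15 of the single-cell sums the hypoxia list had a median of -0.12, the glycolysis list of -0.15 and the stress list of -0.42, against -0.03 over all genes. These lists moved from day to day. On days 6, 9 and 12 the hypoxia medians were -0.04, -0.31 and 0.17, with 11, 5 and 19 of 26 members higher. The glycolysis medians were -0.03, -0.32 and 0.28, with 7, 1 and 20 of 25 higher. The stress medians were -0.07, -0.17 and 0.04, with 9, 5 and 17 of 29 higher. Over the days edgeR called 1 of the 26 hypoxia targets higher and 4 lower in the sums. It called 1 of 25 glycolysis genes lower, and 1 of 29 stress genes higher and 2 lower. Over all genes 2.37% were called higher and 1.85% lower.

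**Figure D4:**
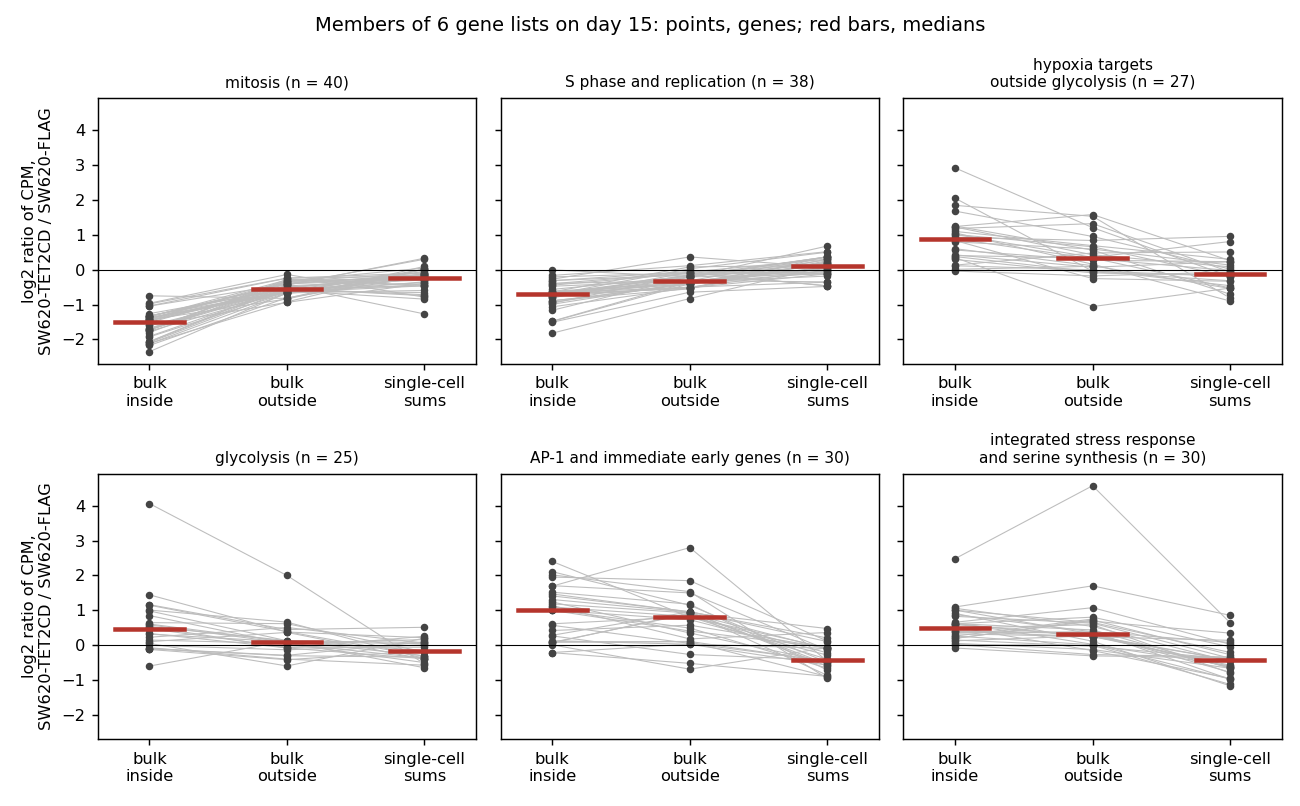
Log2 ratios of CPM (SW620-TET2CD to SW620-FLAG) on day 15 for the members of 6 gene lists in bulk inside, in bulk outside and in the single-cell sums; points are genes, grey lines join a gene, and red bars are medians. All 40 mitosis genes lie below 0 in both bulk columns, while most AP-1, hypoxia and stress genes lie above 0 in bulk and below 0 in the single-cell sums.

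TET and DNA methylation genes other than TET2 were not called. Of the 21 tested 10 were lower at both locations, against 33.7% of all genes. At an unadjusted p under 0.05 the list had 9 lower, against 10%, and 2 higher, against 9.91%. The methyltransferase genes DNMT1 (-0.48 and -0.15) and DNMT3B (-0.66 and -0.65) were among those lower at both locations. In the single-cell sums these 2 genes had fitted changes of 0.11 and 0.23 with no call, and the list median was 0.05. OGT, the O-GlcNAc transferase that binds TET proteins, had ratios of 0.50 and 0.29. Of 16 imprinted genes tested, 9 were higher and 3 lower at both locations, against 33.7% of all genes in each direction. H19 and GRB10 rose, against 0.288% of all genes called higher, the latter an adaptor of insulin and growth factor receptors. DIO3, which fell, is imprinted too but was not in this list. GRB10 went from 23.1 to 61.0 CPM inside and from 26.5 to 62.4 CPM outside (log2 fold change 1.32, SE 0.11, adjusted p = 0.0457), and in the single-cell sums it was higher on 4 of 4 days (1.18, adjusted p = 0.00697). Only 5 of 55 cancer-testis and germline genes were high enough to be tested and none was called in bulk. MAGEB2, a cancer-testis antigen of chromosome X, was at 0.590 and 0.488 CPM in SW620-FLAG and 2.20 and 11.3 CPM in SW620-TET2CD (adjusted p = 0.114). It was the 1 of these 5 genes called in the single-cell sums, where it was higher on 4 of 4 days (2.71, adjusted p = 7.4e-05). MAGEB2 was at 3.06 CPM in SW620-FLAG there on day 6 and at 0.102 CPM on day 15. STK31 had bulk ratios of -0.08 and -0.09.

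Immune lists held no edgeR call in bulk. Of 31 interferon-stimulated genes 8 were higher and 10 lower at both locations, with LAMP3 (2.34 and 1.30) and SAMD9 (-1.64 and -0.99) at the ends. Of 19 MHC class I genes 9 were higher at both locations, PSMB9 having the largest fitted change (1.04, adjusted p = 0.279) and ERAP2 the smallest (-0.46, adjusted p = 0.356). Of 25 chemokines and NF-kB feedback genes 8 were higher and 7 lower at both locations, with CXCL6 (2.17, adjusted p = 0.117) and CX3CL1 (-2.65, adjusted p = 0.089) at the ends. The shares of these lists in either direction were near or below the background of 33.7%, apart from MHC class I. At an unadjusted p under 0.05 the interferon list had 3 higher and 3 lower, MHC class I had 4 higher and the chemokine list had 6 higher and 3 lower, against 9.91% and 10% of all genes. DESeq2 called 1 interferon gene higher and 3 lower, 1 chemokine gene in each direction and no MHC class I gene, against 2.16% and 2.17% of all genes. Over the days the single-cell sums had 4 of 23 chemokine and NF-kB genes called higher and 1 lower, against 2.37% and 1.85% of all genes. CXCL6 was among those higher (0.70, adjusted p = 0.0164). Of 30 interferon genes 1 was called lower there, and no MHC class I gene was called.

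Of 25 TGF-beta and BMP response genes 13 were higher and 6 lower at both locations, against 33.7% of all genes in each direction. In this list 1 gene was called higher, against 0.288%, and DESeq2 called 4 higher and 2 lower, against 2.16% and 2.17%. TGFB2, a TGF-beta ligand, rose from 0.472 to 5.98 CPM inside and from 0.399 to 8.48 CPM outside (adjusted p = 0.0457). It was called in the single-cell sums too (1.93, adjusted p = 0.00492). TGFB2 was under 1 CPM in both SW620-FLAG bulk libraries and at 0.0858 to 0.291 CPM in SW620-FLAG in the sums. Both calls on this gene are therefore a description of levels and give no separate support. Of 33 integrins and matrix proteases ITGB6, a subunit of the integrin that activates TGF-beta, rose from 15.8 to 37.2 CPM inside and from 15.4 to 35.9 CPM outside (log2 fold change 1.23, SE 0.12, adjusted p = 0.0488). In the single-cell sums its change was 0.21 with no call (adjusted p = 0.63). The integrin list had a median of 0.25 inside and 0.00 outside, and in the single-cell sums 9 of 32 members were called lower, against 1.85% of all genes. In bulk 9 of the integrin list were higher and 4 lower at an unadjusted p under 0.05, against 9.91% and 10% of all genes. DESeq2 called 3 of this list in each direction, against 2.16% and 2.17%. Of 16 stem cell markers none was called in bulk, with MSI1 under 2 CPM throughout and CD44 the lowest fitted member. The single-cell sums had 3 of 15 called higher, against 2.37% of all genes.

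The remaining lists held 1 edgeR call in bulk. Intestinal differentiation markers had medians of 0.02 and -0.17 over 15 genes, with CEACAM5 under 1 CPM throughout and MUC13 at -0.68 and -2.50 (adjusted p = 0.168). Of 24 NRF2 and redox genes 14 were lower at both locations, against 33.7% of all genes, 7 were lower at an unadjusted p under 0.05, against 10%, and DESeq2 called 3 lower, against 2.17%. The only edgeR call in bulk, against 0.124% of all genes, was lower. ABCC2, an organic anion transporter, fell from 55.3 to 19.6 CPM inside and from 58.5 to 13.9 CPM outside (log2 fold change -1.79, SE 0.17, adjusted p = 0.0488). In the single-cell sums its change was 0.11 with no call (adjusted p = 0.77). Heat shock genes had medians of 0.01 and -0.10, HSPA6 going from 0.0393 to 11.6 CPM inside and from 0.310 to 3.12 CPM outside (adjusted p = 0.0921) and HSPA4L having ratios of -0.17 and -0.55. Cholesterol and fatty acid genes were split by location, with medians of 0.18 inside and -0.35 outside. Of the 30, 21 did not have the same sign at the 2 locations, against 32.6% of all genes. FADS2 was the highest of them on the fitted scale, with ratios of 0.66 and 1.15.
The 51 ribosomal protein genes had medians of 0.02 and -0.29 with 24 lower at both locations, against 33.7% of all genes. RPL13 (0.02) and RPL19 (-0.40) were the ends of the fitted changes. The 48 nuclear OXPHOS subunits had medians of -0.03 and -0.12 with 26 lower at both locations, against 33.7% of all genes. They lay between ATP5MC1 (0.26) and ATP5F1A (-0.35) on the fitted scale. The 13 genes of the mitochondrial genome had medians of 0.06 and 0.19, between MT-ND3 (0.56) and MT-CO2 (-0.06). The median ratio of each chromosome lay between -0.06 and 0.09 at both locations.

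**Figure D5:**
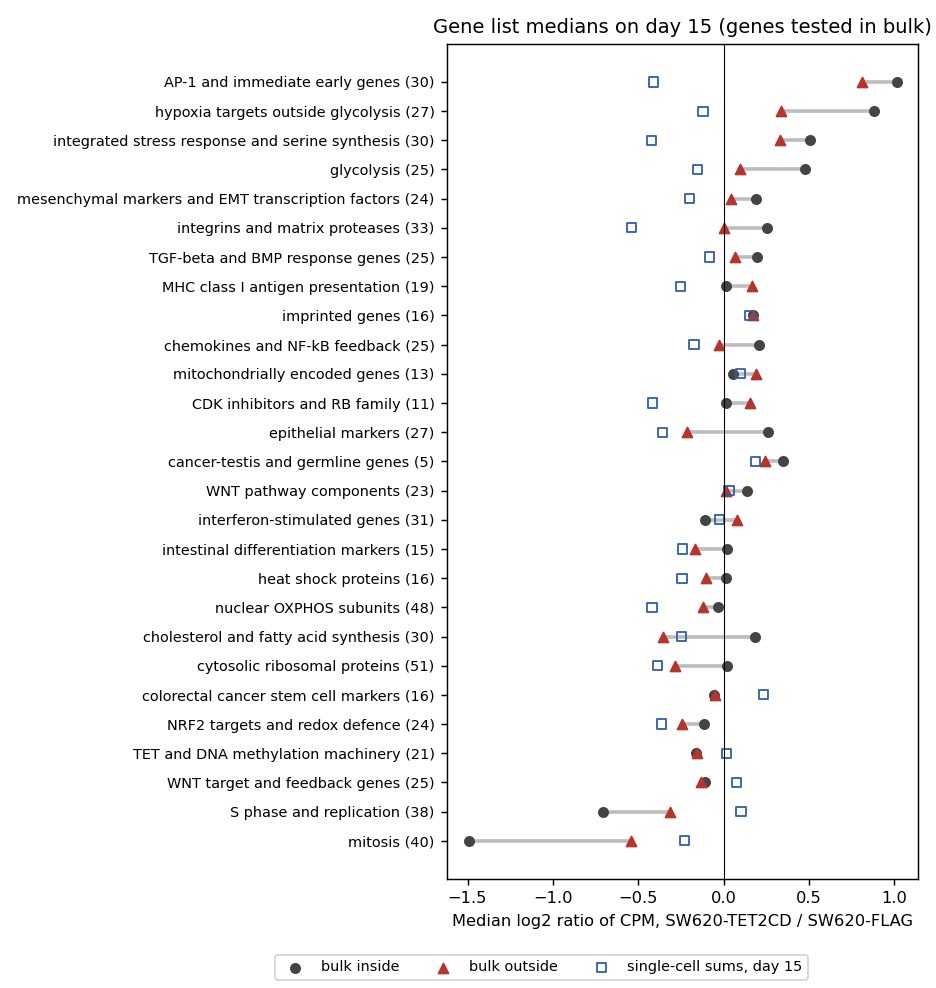
Median log2 ratio of CPM (SW620-TET2CD to SW620-FLAG) of each gene list with at least 5 genes tested, on day 15, with the number of genes tested in parentheses; black circles are bulk inside, red triangles bulk outside and open squares the single-cell sums. Mitosis is lowest at -1.49 and -0.54, and the AP-1 list is highest at 1.02 and 0.81.

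Among markers of other cell types, the summed endothelial markers were higher in SW620-TET2CD outside the colonies and the summed blood cell markers in SW620-TET2CD at both locations. Over the 6 endothelial markers the summed level was 1.08 and 1.65 TPM in SW620-FLAG inside and outside and 2.12 and 30.7 TPM in SW620-TET2CD. KDR and TEK were listed at 0 in all 4 libraries, and VWF and CDH5 reached at most 0.95 TPM. CLDN5, a claudin, accounted for 25.1 TPM outside in SW620-TET2CD and PECAM1 for 5.06 TPM, and CLDN5 was called higher (adjusted p = 0.0457). Fibroblast markers summed to 13.7 and 14.5 TPM in SW620-FLAG and 7.95 and 5.2 TPM in SW620-TET2CD, with COL1A2, COL3A1, FAP and POSTN at 0, LUM at ratios of -0.68 and -2.36 and PDGFRB at -0.73 and 0.80. Blood cell markers summed to 9.59 and 12.3 TPM in SW620-FLAG and 26.3 and 19.3 TPM in SW620-TET2CD, with CD3E and MS4A1 at 0. LYZ, which encodes lysozyme, went from 2.63 to 17.0 TPM inside and from 2.7 to 13.3 TPM outside (adjusted p = 0.0528), and HBA1 stayed under 1 CPM. CD68 went from 3.86 to 7.39 TPM inside and from 7.3 to 2.95 TPM outside, so that the higher sum outside rests on LYZ.
Neural markers summed to between 11.2 and 16.7 TPM, with SNAP25 at 0, SYP at ratios of -0.33 and -0.39 and GFAP under 1 CPM. The part of other cells in the results was not tested.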

How the data were processed

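Bulk RNA-seq of the 4 day 15 libraries was analysed from the deposited gene tables. Per the study's methods the authors used a TruSeq kit and a NextSeq 500, and the submitters' processing notes name Bowtie and RSEM. The notes give mm10 as a build, but every gene identifier in the tables is a human Ensembl identifier, and no source used here gives the build or annotation release of the tables. The authors deposited an RSEM expected count, a TPM and an FPKM per gene for each library. TPM served for levels between genes and in marker sums, and FPKM was not used. Deposited single-cell UMI counts (Cell Ranger 4.0, GRCh38) were summed per library over barcodes that had 1000 to 20000 UMIs, 200 to 4500 genes and a mitochondrial share of up to 10%. Doublets were not called, and between 3894 and 8154 cells were kept per library.

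Of 60669 genes 45 Y copies of pseudoautosomal genes were left out, and expected counts were rounded to whole numbers. Lines were compared with edgeR 4.0.16 (filterByExpr, TMM, quasi-likelihood test, two-sided, Benjamini-Hochberg adjustment over all genes tested, threshold 0.05) in R 4.3.3, with location as a block in bulk and day in the single-cell sums. The standard error (SE) is the fold change divided by the root of the test's F statistic. Alternatives used DESeq2 1.42.0 and limma 3.58.1. On simulated bulk counts 52% of changes of 1 and 82% of changes of 2 on the log2 scale were recovered, with 2 false calls among 17148 unchanged genes. The simulation had no effect of location and the same line effect at both locations. Its rates hold for that setting only and do not give the error rate of the real comparison. Each line and location has 1 library, so the 2 locations of a line stand in for replicates, and counting intervals cover counting error only. Gene positions are those of GENCODE for GRCh38, matched by Ensembl identifier.

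Named genes were TET2 and the targets the study names, the first 15 genes in each direction by the smaller absolute ratio (mean of at least 5 CPM), up to 4 called members per list and direction or else the members with the largest and smallest fitted change, the first 4 a direction of the epithelial, mesenchymal and WNT target lists, and the 5 a direction with opposite ratios. Genes of chromosome Y and XIST were left out. EPCAM, CDH1, FN1, TOP2A, MKI67, NDRG1, GRHL2, CDH17, GASK1B, MYEOV, ATF4, DNMT1, DNMT3B, OGT, RGPD5, TCF7 and the genes of the closing observations were chosen with their values known. A few genes that the rule or the lists include are not reported here. The comparison and the lists were chosen with earlier results of these data known. Lists are described by counts and medians, with no test. No source used here gives the strand setting of the bulk counting, so antisense and overlapping genes may share reads.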

Additional observations from a re-analysis of the deposited data

Results flagged for a closer look

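A set of 10 genes with a mean of at least 5 CPM is listed because SW620-TET2CD was higher than SW620-FLAG at one location and lower at the other. The difference between locations was not tested, since each line and location has 1 library.

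The first 5 were higher inside and lower outside the colonies. CD68, a lysosomal protein, had log2 ratios of 1.03 inside and -0.82 outside. RN7SK, a small nuclear RNA that restrains transcription elongation, had 1.24 and -0.80. AC026464.6 had 0.71 and -0.86. The histone gene H4C14 had 0.71 and -0.91. DEPTOR, an inhibitor of mTOR, had 1.18 and -0.69.

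The other 5 were lower inside and higher outside. MYH7B, a myosin heavy chain, had -1.42 inside and 1.14 outside. CORO1A, an actin-binding coronin, had -1.62 and 1.03. AC159540.2 had -0.85 and 0.99. LIMD2 had -0.82 and 1.39, and ZCCHC24 had -1.22 and 0.79. In the single-cell sums CD68 was called lower over the 4 days (log2 fold change -1.08, adjusted p = 0.0096), LIMD2 higher (0.62, adjusted p = 0.00697) and ZCCHC24 lower (-0.48, adjusted p = 0.0185).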

How the results depend on the processing

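No paired analysis was possible because every replicate number in the labels is 1, where pairing is by that number. Matching by location was part of the test itself, as its block. In the line effect in day 15 bulk, 73 genes were called. DESeq2 called 704, no filter on low counts gave 2239, upper-quartile factors 178, library totals alone 193, no location block 8 and limma on log2(TPM + 1) 1. The 73 genes were all called under the first 4 of these. In the line effect in day 15 bulk, genes called higher went from 51 to 351, 1054, 103, 116, 3 and 0 in the same order. In the line effect in day 15 bulk, genes called lower went from 22 to 353, 1185, 75, 77, 5 and 1. Leaving out 1 library gave 0 to 4191 calls, 0 to 2138 higher and 0 to 2053 lower. Such a fit has no location block and assumes that the lone library varies like the pair of the other line. The line effect in single-cell sums went from 696 calls to 1489 with no filter and to 46 with no day block. In the line effect in single-cell sums, genes called higher were then 758 and 42, and in the line effect in single-cell sums, genes called lower were 731 and 4. Leaving out 1 library gave 416 to 680 calls, 258 to 398 higher and 148 to 295 lower, the lowest totals being 416 without SW620-FLAG day 9 and 426 without SW620-TET2CD day 9.

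List medians in day 15 bulk moved as follows. TET and DNA methylation machinery stood at -0.20, and at -0.21 with upper-quartile factors, -0.19 with library totals alone or with a pseudocount of 5 CPM, -0.16 inside alone and -0.15 outside alone. The mesenchymal median of 0.21 was 0.045 outside alone, the WNT component median of 0.03 was 0.14 inside alone, and the AP-1 median of 0.78 was 1.02 inside alone. The WNT target median of -0.21 was -0.11 inside alone, -0.13 outside alone and -0.12 with a pseudocount of 5 CPM. The single reported genes that changed sign had not been called. The change of PDGFRB became 0.0068 with library totals alone, 0.0080 with limma and 0.44 with no location block, and the change of CCNE1 became -0.018 with DESeq2. Leaving out 1 library, the change of PDGFRB ran from -1.67 to 1.24, the change of CCNE1 from -0.98 to 0.85, the change of RPL13 from -0.20 to 0.22, the change of VEGFA from -0.19 to 0.76, the change of STK31 from -0.49 to 0.021 and the change of PFKFB4 from -0.66 to 0.090. The cause of these moves was not tested.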

Other observations

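Ligands and enzymes outside the lists were also among the genes called in bulk, and those named here were chosen after their values were seen. EREG, the EGF receptor ligand epiregulin, rose from 1.42 to 12.1 CPM inside and from 4.12 to 59.0 CPM outside (log2 fold change 3.53, adjusted p = 0.0304), and in the single-cell sums by 0.80 (adjusted p = 0.00151). AREG, the related ligand amphiregulin, had log2 ratios of 1.04 and 1.42 without being called (adjusted p = 0.0686), while TGFA had 0.66 and -0.12. ALDH1A2, which makes retinoic acid, had 1 read inside and 0 outside in SW620-FLAG and was at 1.34 CPM inside and 66.9 CPM outside in SW620-TET2CD, which is 28 and 1758 reads, so its level rests mainly on the outside library. It was called (adjusted p = 0.0457), and in the single-cell sums its log2 fold change was 2.61 (adjusted p = 3.83e-05). DHRS3, which reduces retinal to retinol, rose from 10.6 to 36.2 CPM inside and from 8.82 to 34.5 CPM outside (adjusted p = 0.0372). ALDH1A3 had ratios of 1.16 and 3.16 without being called (adjusted p = 0.121), and the retinol importer STRA6 had -1.25 and -0.63 (adjusted p = 0.0921).

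CD74, the invariant chain of MHC class II, rose from 0.197 to 4.02 CPM inside and from 0.310 to 9.28 CPM outside (adjusted p = 0.0457), and CTSH, a lysosomal protease, from 2.32 to 14.2 and from 3.37 to 46.5 CPM (adjusted p = 0.0488). RAB25, an epithelial GTPase of recycling endosomes, rose from 0.157 to 5.26 and from 0.0887 to 8.56 CPM (adjusted p = 0.0457). Collagen genes COL9A3 and COL27A1 fell by 1.76 and 1.64 on the log2 scale (adjusted p = 0.0294 and 0.0344). In the single-cell sums their changes were -0.07 and 0.23 with no call (adjusted p = 0.84 and 0.55).

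The whole SW620 culture of day 6 is an unpaired library labelled SW620, as the day 15 control is. It was set beside the first 15 genes of each direction in TPM. It lay below both SW620-TET2CD libraries in 15 of the 15 higher genes and above both in 14 of the 15 lower genes, RGPD6 being the exception. The SW480 culture of day 6, from the primary tumour of the same patient, lay below both SW620-TET2CD libraries in 12 of the 15 higher genes and above both in 10 of the 15 lower genes, with FXYD2, DIO3, PRAP1, EFNA2 and DPEP1 as exceptions. In SW480 DKK4 was at 30.3 TPM, between the 30.1 TPM inside and 734 TPM outside of SW620-TET2CD, and EMP1 and ATF5 were the other exceptions among the higher genes. These cultures differ from the day 15 libraries in day and preparation. The genes were ranked by their difference between SW620-TET2CD and SW620-FLAG, which favours such an order. No share over all genes was taken, so these counts are a description and give no separate support.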
